A study of Homo sapiens with 7 samples.

Results

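Keratins and the other intermediate filament proteins were described in 7 RNA sequencing libraries of the human cell line TE11, labelled as esophageal squamous cell carcinoma. Members were taken by gene symbol alone: the 55 keratin rows of the deposited table (KRT followed by a number, with or without A, B or C) and 14 further filament genes, 69 rows of 60591 in all. Of the libraries, 4 came from cells given 200 µM diclofenac for 48 h and 3 from cells given the vehicle, 0.07% DMSO, for 48 h. The drug is a common painkiller of the cyclooxygenase inhibitor class. All libraries come from this 1 line, and the labels do not say whether the replicates were separate cultures, so p-values measure the spread between these libraries, which may be technical. The study asked what this drug does to metabolism and to p53 signaling in esophageal cancer cells.

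Intermediate filaments are the rope-like fibres of the cytoskeleton that give cells mechanical strength. Keratins form them in epithelia as obligate pairs of a type I and a type II chain: KRT8 (type II) with KRT18 (type I) in simple epithelia, KRT5 with KRT14 in the basal layer of squamous epithelium, and KRT4 with KRT13 above it in the esophagus. Vimentin fills the same place in mesenchymal cells, desmin in muscle, GFAP in astrocytes, and the neurofilament proteins in neurons. Lamins are the filaments that line the nucleus, with LMNB1 and LMNB2 the B type and LMNA the source of lamins A and C.

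The libraries held a filament profile made mainly of vimentin, lamins and neurofilaments, with the keratin counts concentrated in few keratin genes. Total counts ran from 19878696 to 26490829 per library. Of the 55 keratins, 24 had no count in any library and 19 more had 1 to 9 counts over all 7 libraries. Only 5 keratins (KRT8, KRT18, KRT10, KRT38 and KRT17) had enough counts to be tested, against all 14 of the other filament genes. Of these 19 tested genes, 3 were called higher and 8 lower under diclofenac by edgeR's quasi-likelihood test at an adjusted p under 0.05. Those are 15.8% and 42.1% of the 19 tested, against 30.2% higher and 29.5% lower among all 18311 genes tested. In either direction 57.9% were called, against 59.7% of all genes, so the share of changed filament genes lay near that of genes at large. The groups did not overlap in 10 of the 19 (52.6%), against 58.5% of all genes. The rises were those of KRT8, KRT17 and DES, and the falls those of KRT18, KRT10, KRT38, INA, NEFL, NEFM, LMNB1 and LMNB2. The median log2 fold change was -0.09 over the 19 and 0.02 over all genes tested. Most falls were small, and the call of 6 of the 8 was lost when libraries were scaled by total counts alone, a scaling under which the fold changes of all genes had a median 0.18 higher on the log2 scale. Only the falls of NEFL and LMNB2 kept their call under that scaling, and so did the rise of KRT8; NES, SYNM and LMNA were called higher there in addition. KRT17 and DES also kept theirs, but reached the minimum count only in diclofenac libraries, so that a difference was built into their being tested.

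**Figure D1:**
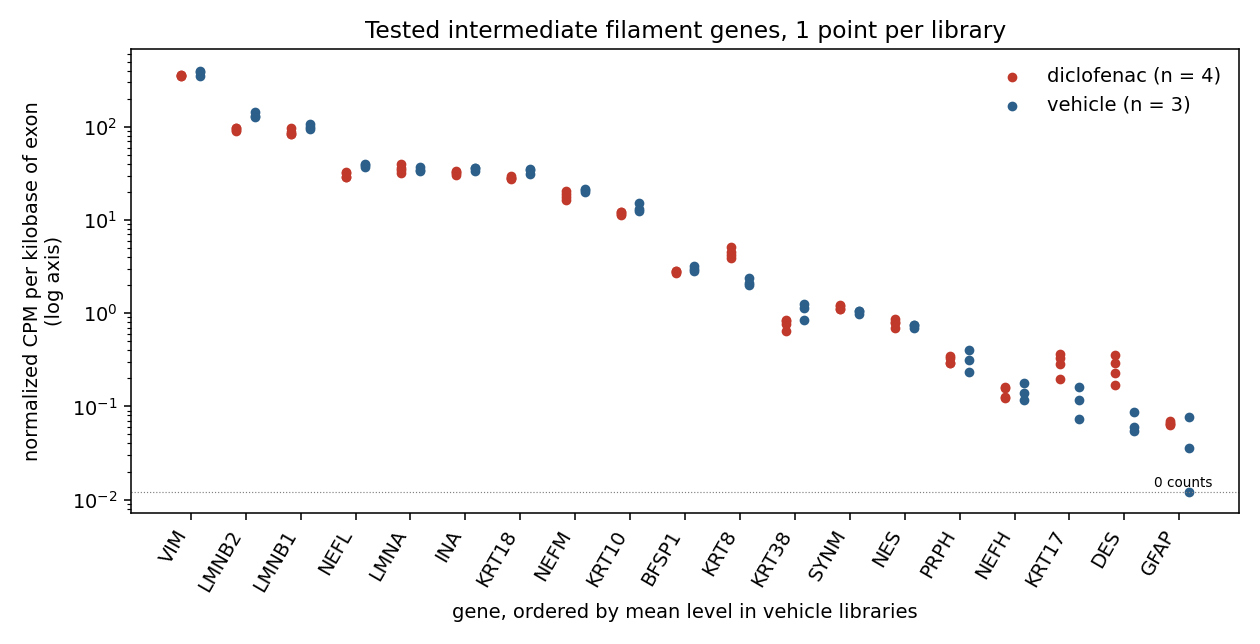
Normalized CPM (counts relative to the scaled library total) per kilobase of exon, on a log axis, for the 19 tested filament genes, with 1 point per library (diclofenac left, vehicle right of each gene). VIM lies highest, at 356 in diclofenac and 380 in vehicle libraries on average, and the KRT8, KRT17 and DES points lie higher under diclofenac; the dotted line holds the 1 library of GFAP with 0 counts.

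To compare genes with each other, levels were divided by the length of each gene's merged coding-transcript exons. On this scale (normalized CPM per kilobase) VIM stood at 356 ± 1.84 in diclofenac and 380 ± 24.9 in vehicle libraries (SD, n = 4 and 3). LMNB2 stood at 94.2 ± 3.60 and 134 ± 8.84, and LMNB1 at 88.2 ± 6.75 and 100.2 ± 5.62. The next levels, those of LMNA, INA, NEFL and KRT18, lay close together, from 28.4 to 35.5 in diclofenac and from 33.8 to 38.6 in vehicle libraries. Neighbours in that run overlapped between libraries in each group, so their order is not resolved. NEFM and KRT10 followed, and below them BFSP1, KRT8, SYNM, KRT38 and NES lay under 5. PRPH, NEFH, KRT17, DES and GFAP were all under 0.4. LMNB1 and LMNB2 overlapped under diclofenac but not under vehicle. The order depends on the length used. With the median length of the coding transcripts, LMNB1 stood above LMNB2 in both groups (167 against 94.2 under diclofenac, 189 against 134 under vehicle). LMNA then left the run, at 74.1 under diclofenac and 73.7 under vehicle, and NEFM joined it, at 32.0 and 36.2. KRT8 stood at 10.9 and 5.27 on that scale.

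The marker genes went against the label in part, so the libraries are those labelled TE11. Of 10 squamous markers, KRT6A and KRT4 were at 0 throughout, and TP63, KRT5, KRT14, IVL, SPRR3 and DSG3 had 1 to 9 counts over all libraries. S100A2 was the only one tested, and it was called higher. The summed squamous level was 0.843 to 1.46 normalized CPM in diclofenac and 0.447 to 0.934 in vehicle libraries. The 9 epithelial markers together gave 7.15 to 8.79 under diclofenac and 4.96 to 5.69 under vehicle. Of the 4 tested, EPCAM, ESRP2 and CLDN4 were called higher, where 30.2% of all genes tested were. CDH1, the most abundant of the list, was not called (3.00 against 2.43 normalized CPM under vehicle, edgeR adjusted p = 0.0638). GRHL2 had under 10 counts in all. ESRP2, CLDN4 and S100A2 passed the filter on low counts through the diclofenac libraries alone. Their means lay under 0 log2 CPM, where genes tested had a median log2 fold change of 0.41. The 10 mesenchymal markers, VIM among them, summed to 896 to 918 under diclofenac and 898 to 990 under vehicle, and without VIM to 232 to 248 and 237 to 239. Mesenchymal markers went both ways: ZEB2, ZEB1 and FN1 rose, by 0.68, 0.30 and 0.17 on the log2 scale, and TWIST1 and COL1A1 fell, by 0.43 and 0.44. The FN1 libraries overlapped between groups. The 10 neuronal markers summed to 264 to 312 under diclofenac and 332 to 345 under vehicle, mostly through the members NEFL and NEFM, and without them to 72.4 to 87.3 and 84.1 to 92.7, which overlap. Among the neuronal list SYP (synaptophysin, a synaptic vesicle protein) stood at 69.5 ± 6.25 and 79.5 ± 4.10 normalized CPM, while ELAVL4, STMN2 and DCX were near 0. Of the 5 tested, SYP, TUBB3 (-0.60 on the log2 scale), NEFL and NEFM were called lower, where 29.5% of all genes tested were. NEFL and NEFM are members described below, so only SYP and TUBB3 are calls outside the members. SYP fell by 0.19 and its libraries overlapped between groups. Marker calls were not examined under other scalings. GAP43 was not called. SNAP25 and ELAVL3, both untested, had higher means under diclofenac (0.452 against 0.106 and 0.337 against 0.145 normalized CPM). The epithelial sum was higher in every diclofenac library, and its part in the changes below was not tested. In bulk RNA, fewer cells of a type and less RNA per cell cannot be told apart.

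Promoter sequences are shown for KRT8 and LMNB2. Among members above 5 normalized CPM these had the largest called rise and the largest called fall. Which gene start these libraries used was not tested, so the sequences may not be the promoters in use. They are the 250 bases before and 50 after a RefSeq gene start in GRCh38.p14, printed 5′ to 3′ on the strand of the gene; 43 of the 69 members had an entry. KRT18 had none and is named only. The KRT8 window is chr12:52926420-52926719 (minus strand) and the LMNB2 window chr19:2456910-2457209 (minus strand). Capitals mark matches, on either strand, to TATAAA (the TATA box), CCAAT (bound by NF-Y), GGGCGG (the GC box) or TGATGNAA (the core of the ATF4 response element), none of which overlap here.

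KRT8: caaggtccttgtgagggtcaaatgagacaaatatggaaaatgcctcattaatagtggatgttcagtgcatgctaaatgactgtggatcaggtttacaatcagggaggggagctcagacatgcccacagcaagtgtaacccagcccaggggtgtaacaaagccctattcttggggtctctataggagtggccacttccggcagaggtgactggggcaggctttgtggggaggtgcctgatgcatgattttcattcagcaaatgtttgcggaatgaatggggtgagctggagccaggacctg
LMNB2: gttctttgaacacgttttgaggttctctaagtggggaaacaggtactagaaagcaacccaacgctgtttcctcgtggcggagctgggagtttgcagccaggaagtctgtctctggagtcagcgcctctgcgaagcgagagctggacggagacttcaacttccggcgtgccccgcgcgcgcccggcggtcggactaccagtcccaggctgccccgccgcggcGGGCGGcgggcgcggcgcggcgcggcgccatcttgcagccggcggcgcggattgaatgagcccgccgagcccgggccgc

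The LMNB2 window held 1 match, a GGGCGG starting 29 bases before the gene start (position -29), and was 67.7% G and C. The KRT8 window held none and was 50.7% G and C. Of 35116 promoter windows in the same table, 45.0% held GGGCGG, 34.6% CCAAT, 11.5% TATAAA and 3.62% TGATGNAA. A match is a description of letters, not of binding.

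The simple keratins KRT8 and KRT18, partners in 1 filament, moved in opposite directions. KRT8 had 19.5, 17.7, 23.5 and 21.0 normalized CPM in the diclofenac libraries, against 11.01, 9.10 and 9.66 in the vehicle libraries. Every diclofenac library lay above every vehicle library. The fold was 2.05 (log2 fold change 1.04, SE 0.0955, edgeR adjusted p = 5.38e-08). KRT18 had 56.8, 55.0, 60.03 and 56.3 normalized CPM in the diclofenac libraries, against 68.5, 71.6 and 63.3 in the vehicle libraries. The diclofenac libraries all lay below the vehicle libraries, by a smaller margin. KRT18 fell by 0.25 on the log2 scale (SE 0.0511, edgeR adjusted p = 4.12e-04), but by 0.07 with no call by total counts alone (adjusted p = 0.245). The ratio of the pair within a library does not depend on scaling. The log2 ratio of KRT18 to KRT8 counts was 1.49 ± 0.124 under diclofenac and 2.78 ± 0.178 under vehicle (SD, n = 4 and 3). The difference was -1.29, lower in 4 of 4 diclofenac libraries. An exact two-sided permutation test over the 35 possible arrangements gave p = 0.0286, its lowest possible value, which adjustment over 5 ratios left at 0.0286. With KRT8 higher and KRT18 lower in every diclofenac library, the ratio had to separate, so this p is not separate support. KRT18 stayed the more abundant of the pair per kilobase, 6.37 times KRT8 under diclofenac and 15.6 times under vehicle, or 3.36 and 8.23 times with median transcript lengths. The other simple keratins were near 0: KRT7 had 1 count in all, under diclofenac, and KRT19 had 2 counts under diclofenac and 1 under vehicle.

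**Figure D2:**
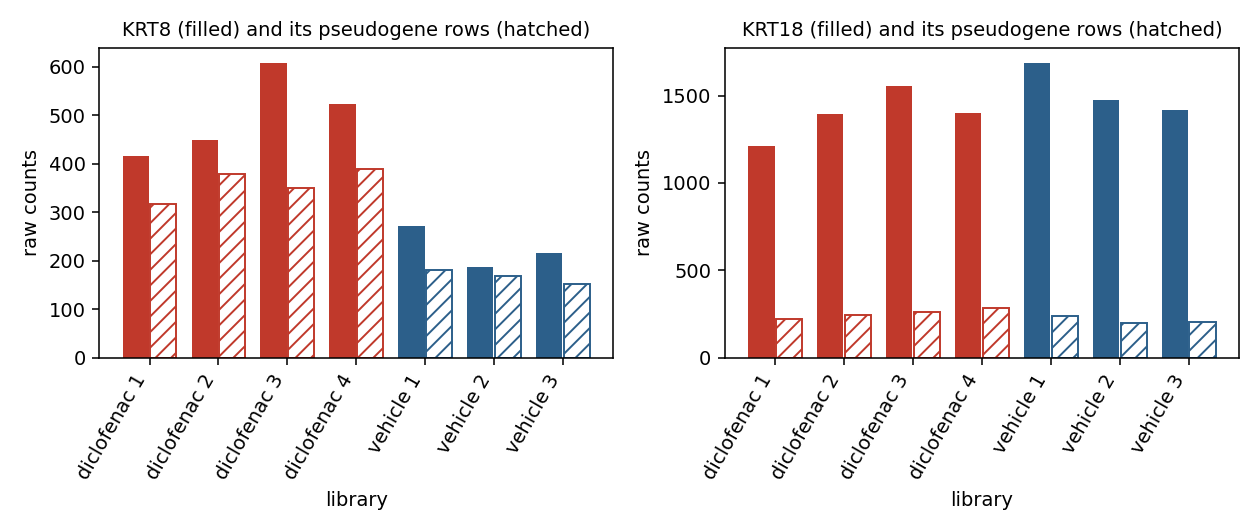
Raw counts per library (y axis from 0) of KRT8 and KRT18 (filled bars) and of all rows named as their pseudogenes (hatched bars), diclofenac in red and vehicle in blue. KRT8 and its pseudogene rows are both higher in the 4 diclofenac libraries, with the pseudogene rows at 317 to 389 counts against 153 to 180, while KRT18 has 201 to 287 pseudogene counts in every library.

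Both genes have many processed pseudogenes, and the sources used here do not give how reads were shared between the copies. Of 51 rows named as KRT8 pseudogenes 35 had counts, equal to 71.8% of the KRT8 counts under diclofenac and 74.5% under vehicle. They moved with KRT8. KRT8P12 rose by 0.66 and KRT8P3 by 1.61 on the log2 scale (edgeR adjusted p = 2.74e-05 and 6.83e-07). Summed with these rows KRT8 gave a log2 fold change of 1.02, close to its own 1.04. The KRT18 pseudogene rows held 18.3% and 14.0% of the KRT18 counts, and summed with them KRT18 fell by 0.20 (edgeR adjusted p = 0.00224). Those with most counts did not fall with KRT18. KRT18P17 (0.42, edgeR adjusted p = 0.0696), KRT18P10 (0.14, 0.569) and KRT18P11 (-0.07, 0.811) were not called. In the annotation the exons of KRT8 and KRT18, on opposite strands, overlap by 135 bases, and the sources used here do not say whether counting used the strand, although the kit named in the labels keeps it.

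Of the remaining 51 keratins, 3 were tested. KRT10, the type I keratin of differentiating epidermis, had 24.1, 24.5, 25.7 and 25.9 normalized CPM in the diclofenac libraries, against 27.6, 32.3 and 26.6 in the vehicle libraries. The groups were separate by a narrow margin. KRT10 fell by 0.20 on the log2 scale (SE 0.0661, edgeR adjusted p = 0.0155), but its call was lost without vehicle replicate 2 (-0.12, adjusted p = 0.127), with upper-quartile factors (-0.11, adjusted p = 0.161) and by total counts alone (-0.02). KRT1, the usual type II partner of KRT10, had no count in any library. KRT38, a hair keratin, had 1.93, 1.78, 1.51 and 1.97 normalized CPM under diclofenac and 2.93, 2.00 and 2.68 under vehicle. The groups were separate by a narrow margin here too. It fell by 0.51 (SE 0.170, edgeR adjusted p = 0.0147), and the call was lost without vehicle replicate 1 (-0.40, adjusted p = 0.0937) and by total counts alone (-0.33, adjusted p = 0.0977).

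KRT17, a type I keratin of basal and wounded epithelium, had 7, 12, 14 and 15 counts in the diclofenac libraries, against 3, 4 and 6 in the vehicle libraries. Its log2 fold change was 1.33 (SE 0.393, edgeR adjusted p = 0.00731), and 1.06 without vehicle replicate 1 (adjusted p = 0.0566). KRT17 passed the filter on low counts through the diclofenac libraries alone, as did DES, GFAP and NEFH. KRT17 no longer passed the filter without diclofenac replicate 2, 3 or 4, and DES not without diclofenac replicate 1, 2 or 4. Genes tested with a mean under 0 log2 CPM, 2583 in all, had a median log2 fold change of 0.41. Rows named as KRT17 pseudogenes held 47.9% of the KRT17 counts under diclofenac and 30.8% under vehicle. A further 7 keratins had at least 10 counts but were not tested. KRT75 had 22 counts under diclofenac and 6 under vehicle, which is 2.88 times the rate per library total (exact 95% interval for Poisson counts 1.13 to 8.67, covering counting error alone). The ratios of these 7 keratins use total counts alone, under which log2 fold changes of all genes had a median 0.18 higher. KRT32, a hair keratin, had 38 and 17 counts (ratio 1.75, interval 0.966 to 3.31). KRT13 of the esophageal lining had 14 and 5 counts (ratio 2.20, interval 0.748 to 7.79). KRT80 had 10 and 2 counts, KRT86 8 and 2, KRT35 15 and 5, and KRT36 13 and 6, each with an interval that includes 1. None of the 7 passed with no filter, where the adjusted p of KRT75 was 0.143. Among textbook keratins of squamous epithelium, KRT15 had 3 counts under diclofenac and none under vehicle, KRT16 had 3 and 1, KRT6B had 2 and 2, KRT14 had 2 and 3, and KRT5 had 1 and 0. A count of 0 over a group allows up to 3 counts, or 0.0324 CPM over the diclofenac and 0.0413 CPM over the vehicle libraries, so small changes in these genes were not detectable at this depth.

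Summed over all 55 rows, keratins stood at 106 ± 5.00 normalized CPM under diclofenac and 110.1 ± 6.31 under vehicle. Those totals overlapped, at 101 to 113 and 103 to 116, with KRT8 making up a larger part of the diclofenac total. Per kilobase of exon, keratins summed to 46.5 ± 1.80 under diclofenac and 51.1 ± 3.11 under vehicle. The neurofilament class summed to 83.3 ± 2.98 and 96.3 ± 2.13 on that scale.

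Vimentin was the most abundant member and did not pass the test. VIM had 665, 671, 663 and 664 normalized CPM in the diclofenac libraries, against 659, 751 and 718 in the vehicle libraries. The diclofenac libraries lay close together and inside the vehicle range. The log2 fold change was -0.09 (SE 0.0490, edgeR adjusted p = 0.119); it turned to 0.09 by total counts alone (adjusted p = 0.0929) and was called lower without vehicle replicate 1 (-0.15, adjusted p = 0.0251). The log2 ratio of VIM to KRT8 was 5.03 ± 0.178 under diclofenac and 6.16 ± 0.236 under vehicle. The difference was -1.13 (exact permutation p = 0.0286, adjusted over 5 ratios 0.0286). That ratio largely restates the KRT8 rise of 1.04 on the log2 scale and is not a separate result about VIM. The antisense row VIM-AS1 held 0.531% as many counts as VIM.

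The other genes of the vimentin type were scarce. DES, the muscle filament desmin, had 14, 13, 10 and 20 counts in the diclofenac libraries, against 3, 4 and 3 in the vehicle libraries. The groups were separate, and the log2 fold change was 1.95 (SE 0.417, edgeR adjusted p = 6.16e-04) with means of 0.590 ± 0.180 normalized CPM under diclofenac and 0.150 ± 0.0390 under vehicle. DES passed the filter through the diclofenac libraries alone, so a difference was built into its being tested. GFAP had 11, 12, 13 and 12 counts under diclofenac and 14, 0 and 6 under vehicle. It was not called (log2 fold change 0.73, SE 0.484, edgeR adjusted p = 0.205), and among the runs that left out 1 library it passed only without vehicle replicate 1 (1.78, adjusted p = 0.0198). PRPH, the filament peripherin of peripheral neurons, stood at 1.02 ± 0.0923 and 1.03 ± 0.277 normalized CPM. Its log2 fold change was 0.00 (SE 0.226), and an antisense row overlapping its exons held 43.2% as many counts as PRPH.

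**Figure D3:**
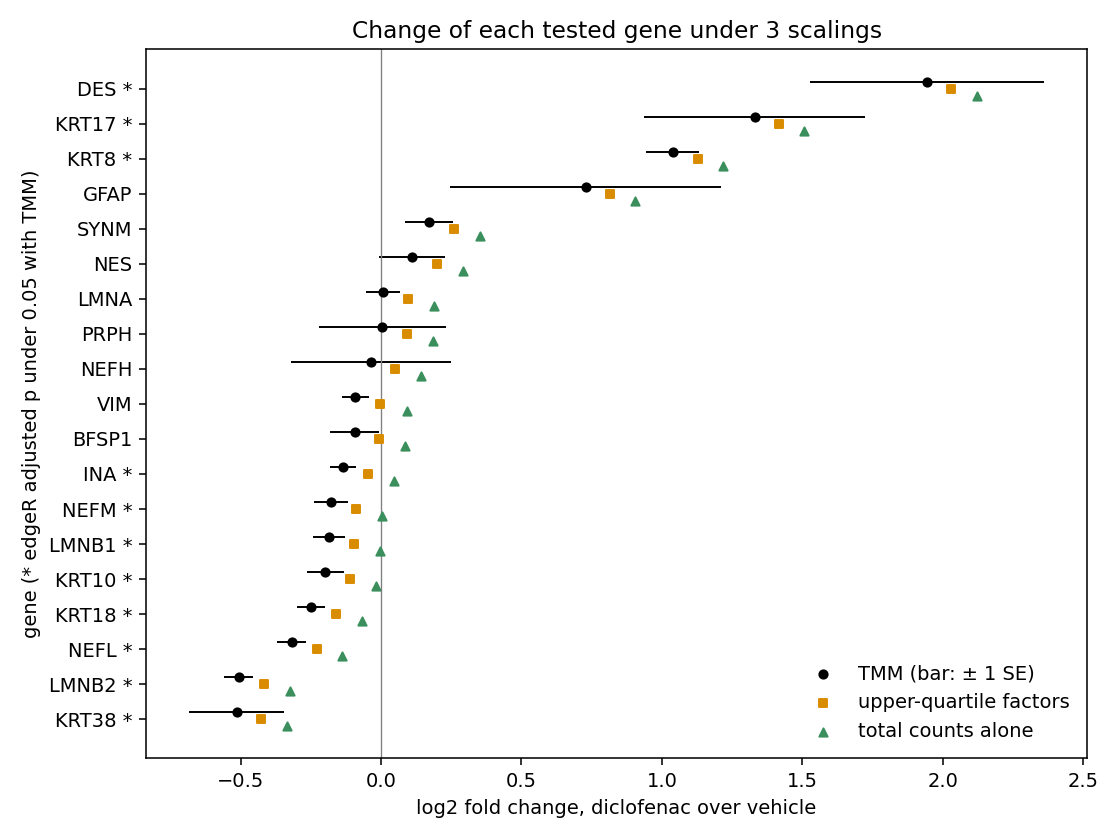
Log2 fold change (diclofenac over vehicle) of the 19 tested filament genes under 3 scalings, with bars of 1 SE for TMM scaling and a star for genes called with it. DES, KRT17 and KRT8 lie above 1 under every scaling shown and LMNB2 and KRT38 below -0.3, while INA and NEFM move from below 0 to above 0 by total counts alone.

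NEFL, NEFM and INA were the abundant genes of the neurofilament class, and these 3 of its 6 genes fell (29.5% of all genes tested were called lower), though by total counts alone or upper-quartile factors NEFL was the only one still called. NEFL, the light neurofilament chain, had 119, 119, 135 and 131 normalized CPM in the diclofenac libraries, against 161, 151 and 160 in the vehicle libraries. Every diclofenac library lay below every vehicle library. NEFL fell by 0.32 on the log2 scale (SE 0.0507, edgeR adjusted p = 3.36e-05) and by 0.14 by total counts alone (adjusted p = 0.0179). NEFM, the medium chain, had 71.5, 77.2, 89.5 and 84.3 normalized CPM under diclofenac and 91.3, 94.1 and 88.4 under vehicle, and the groups overlapped. It fell by 0.18 (SE 0.0613, edgeR adjusted p = 0.0187); the call was lost without diclofenac replicate 1 (-0.12, adjusted p = 0.0624), diclofenac replicate 2 (-0.15, 0.0617) or vehicle replicate 2 (-0.16, 0.0737). INA, the alpha-internexin that assembles with them, had 108, 103, 97.4 and 105 normalized CPM under diclofenac and 116, 108 and 116 under vehicle. It fell by 0.14 (SE 0.0465, edgeR adjusted p = 0.0185), and the call was lost without vehicle replicate 1 (-0.12, adjusted p = 0.0645) or vehicle replicate 3 (-0.13, 0.0566). By total counts alone the changes of INA and NEFM turned to 0.05 and 0.0029, with no call. NEFH, the heavy chain, was near 0.5 normalized CPM in both groups (log2 fold change -0.04, SE 0.286).

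The large filament proteins NES and SYNM, which join filaments built by other members, were not called. NES, the nestin of progenitor cells, averaged 4.38 ± 0.411 normalized CPM under diclofenac and 4.06 ± 0.145 under vehicle (log2 fold change 0.11, SE 0.117). SYNM, synemin, had 9.39, 8.65, 9.65 and 8.67 normalized CPM under diclofenac and 8.25, 8.22 and 7.73 under vehicle. The SYNM libraries did not overlap, but its log2 fold change of 0.17 (SE 0.0851) gave an edgeR adjusted p of 0.0928. By total counts alone both were called higher, at 0.29 and 0.35 (adjusted p = 0.0361 and 0.00164), and SYNM was also called higher with upper-quartile factors (0.26, adjusted p = 0.0137). BFSP1, a beaded-filament protein of the lens, averaged 7.30 ± 0.186 and 7.81 ± 0.525 normalized CPM and was not called (log2 fold change -0.09, SE 0.0884).

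Of the lamins, both of the B type fell while LMNA did not pass (29.5% of all genes tested were called lower). With upper-quartile factors or total counts alone LMNB2 kept its call and LMNB1 did not. LMNB2 had 454, 427, 455 and 424 normalized CPM in the diclofenac libraries, against 672, 607 and 596 in the vehicle libraries. The diclofenac and vehicle libraries did not overlap. LMNB2 fell by 0.51 on the log2 scale, a fold of 0.704 (SE 0.0514, edgeR adjusted p = 1.75e-07), and by 0.33 by total counts alone (adjusted p = 1.32e-05). LMNB1 had 247, 249.4, 291 and 260 normalized CPM under diclofenac and 315, 282 and 296 under vehicle. Its groups overlapped, and it fell by 0.18 (SE 0.0572, edgeR adjusted p = 0.010). The call was lost without vehicle replicate 1 (-0.15, adjusted p = 0.064) and by total counts alone (-0.004). LMNA had 151, 136, 166 and 144 normalized CPM under diclofenac and 158, 146 and 142 under vehicle. Its log2 fold change was 0.01 (SE 0.0595, edgeR adjusted p = 0.934), but 0.19 by total counts alone (adjusted p = 0.00724).

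Ratios within a library separated the 3 lamins without any scaling. The log2 ratio of LMNB2 to LMNA counts was 1.56 ± 0.0832 under diclofenac and 2.07 ± 0.0186 under vehicle (SD, n = 4 and 3), a difference of -0.51. That of LMNB1 to LMNA was 0.81 ± 0.0734 and 1.00 ± 0.0574, a difference of -0.19. That of LMNB1 to LMNB2 was -0.75 ± 0.0982 and -1.07 ± 0.0523, a difference of 0.32. In each of the 3 ratios the groups did not overlap (exact permutation p = 0.0286, adjusted over 5 ratios 0.0286). The 3 ratios share their genes, so they are not independent results. This p is the lowest the test can give, and how often other gene pairs separate was not examined. Of all single genes tested, 58.5% did not overlap between groups. LMNB2 counts were lower under diclofenac relative to both other lamins.

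**Figure D4:**
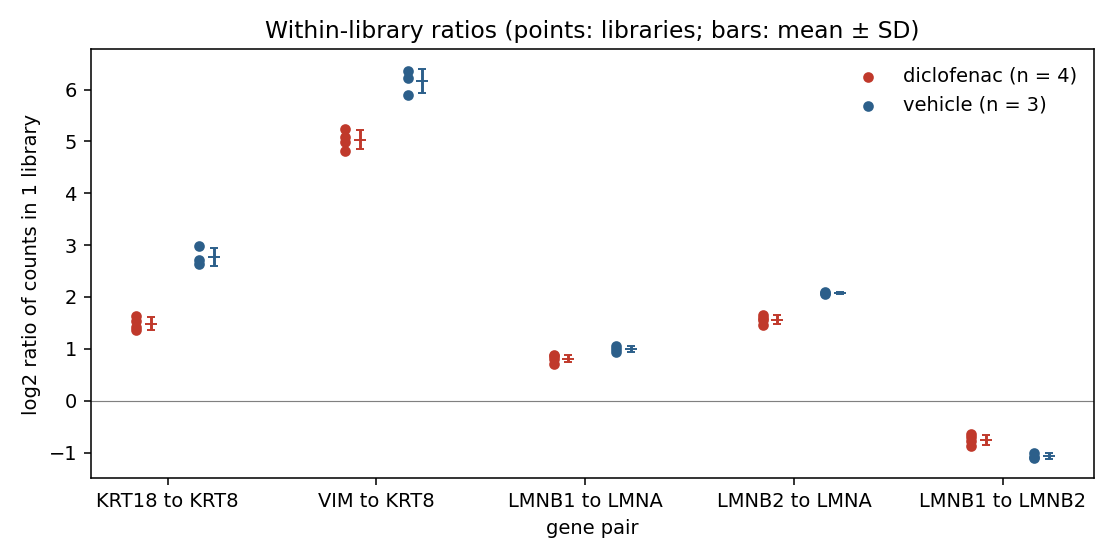
Log2 ratio of the counts of 2 filament genes in the same library, with 1 point per library and bars of mean ± SD (diclofenac n = 4, left; vehicle n = 3, right). The groups are separate in all 5 ratios, some of which share genes, with differences from -1.29 (KRT18 to KRT8) to 0.32 (LMNB1 to LMNB2).

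Genes that anchor, process or turn over filaments were read from 4 lists of 51 genes, of which 44 were tested; 16 rose and 14 fell. That is 36.4% and 31.8%, near the 30.2% and 29.5% of all genes tested. By total counts alone 25 rose and 3 fell, so the split rests on the scaling. The shares of all genes called under that scaling are not given here, so these counts cannot be set against genes at large. Among 19 desmosome and plakin genes, which tie keratins to the cell surface, 13 were tested. Of these, 7 rose (53.8%, against 30.2% of all genes) and 2 fell (15.4%, against 29.5%), with a median log2 fold change of 0.14. EPPK1, an epiplakin that binds keratins, rose by 0.43 (SE 0.0950) to 20.2 ± 2.54 normalized CPM, against 14.96 ± 1.72 under vehicle. DSC3, a desmosomal cadherin, rose by 0.39 (SE 0.0467) to 95.9 ± 4.33, against 73.3 ± 0.945. The falls, named after their values were seen, were those of the desmosomal plaque proteins JUP (-0.37, SE 0.0442) and PKP2 (-0.33, SE 0.0523). Of 17 nuclear envelope partners of lamins, all tested, 4 rose (23.5%, against 30.2% of all genes) and 5 fell (29.4%, against 29.5%). Their median log2 fold change was -0.06. PPL of the desmosome list and SYNE4 of the envelope list were called higher but passed the filter through the diclofenac libraries alone. SYNE1, a nesprin that links the nucleus to the cytoskeleton, rose by 0.39 (SE 0.0848), and BANF1, which binds DNA to the envelope, fell by 0.35 (SE 0.0474).

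Of 5 enzymes that process the ends of lamins FNTA was called higher and 4 lower (median -0.22), where 59.7% of all genes were called. FNTB, the beta subunit of the farnesyltransferase, fell by 0.33 (SE 0.0968) to 6.78 ± 0.711 normalized CPM, against 8.55 ± 0.306 under vehicle. ZMPSTE24, the protease that matures lamin A, fell by 0.24 (SE 0.0476) to 99.3 ± 4.14, against 117 ± 5.57. FNTA, the alpha subunit that farnesyltransferase shares with another prenyltransferase, rose by 0.18 (SE 0.0555). Of 10 genes of filament assembly and turnover 9 were tested. Of these, 4 were called higher (44.4%, against 30.2% of all genes) and 3 lower (33.3%, against 29.5%), with a median of 0.08. CRYAB, a small heat shock protein and 1 of the 4, was near 0 in the vehicle libraries and passed the filter through the diclofenac libraries alone. SFN, the 14-3-3 protein stratifin that binds keratins in epithelia, rose by 1.03 (SE 0.172) to 3.68 ± 0.692 normalized CPM, against 1.81 ± 0.240 under vehicle. FAM83H, which organizes keratin filaments, rose by 0.42 (SE 0.103) to 9.01 ± 0.726, against 6.72 ± 0.869.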

How the data were processed

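The authors deposited raw counts, 1 column per library, and these whole numbers were used without their normalization. Aligner, counter and annotation are not given in the sources used here. A tool (DESeq) and the mouse build GRCm38 appear in the submitters' processing notes, although the rows carry human symbols, so no coordinates of members are taken from the counting. Counts were filtered with filterByExpr (minimum count 10, minimum total 15; 18311 genes tested), scaled by TMM and tested with edgeR 4.0.16 in R 4.3.3 (quasi-likelihood F test, group as the only term, Benjamini-Hochberg over all genes tested, called at an adjusted p under 0.05). SE come from the F statistic, and normalized CPM use TMM-scaled totals. The steps were tested on simulated data. Exon lengths and antisense partners come from GENCODE 29, which held all 69 members by symbol. Members and lists were chosen with earlier results of these data known. Every tested member is named, as is each untested member with at least 10 counts, textbook squamous keratins, and from each partner list the 2 called genes at 1 CPM or more with the largest change. Alternatives were other scalings, DESeq2 1.42.0, limma 3.58.1 with trend, other filters, an adjusted p under 0.01, pseudogene rows added, the replicate number as a block and leaving out each library.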

Additional observations from a re-analysis of the deposited data

How the results depend on the processing

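The count of filament genes called lower, 8 in the main analysis, was 4 with upper-quartile factors, 2 by total counts alone and 3 at an adjusted p under 0.01. The count called higher, 3, was 6 by total counts alone and 1 with a stricter filter (at least 1 CPM throughout either group), which tested neither KRT17 nor DES. Leaving out 1 library gave 1 to 3 called higher; the low end, 1, came without diclofenac replicate 2 or 4, where KRT17 and DES were no longer tested. Partner genes called higher, 16, were 25 by total counts alone. Those called lower, 14, were 7 with upper-quartile factors and 3 by total counts alone. Shares of all genes called under these alternatives are not given, so member and partner counts under them cannot be set against genes at large. INA turned to 0.0466 and NEFM to 0.0029 on the log2 scale by total counts alone. The 5 within-library ratios kept their direction and moved by less than the SD pooled over both groups under every alternative run; that of LMNB2 to LMNA moved by more than the smaller vehicle SD (0.0186) without diclofenac replicate 2 or 3 (-0.54 and -0.47). The labels number replicates in both groups, but same-numbered libraries did not deviate together (correlations 0.000867, 0.0216 and -0.0474). With the replicate block, in which diclofenac replicate 4 has a level of its own and adds nothing to the contrast, 3 filament genes were called higher and 8 lower. Depth limits the keratins with under 10 counts.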
